A study of Mus musculus with 6 samples.

Results

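The transcription factors and cofactors that assemble around GATA1 and TAL1 in blood cells were followed in bone marrow stem and progenitor cells with and without the Mirc11 cluster of miR-24, miR-23a and miR-27a. The members were taken by gene symbol and are 10 genes of the 23997 symbols in the table: Gata1, Gata2, Tal1, Zfpm1, Klf1, Lmo2, Nfe2, Lyl1, Ldb1 and Gfi1b. RNA-seq was performed on 3 Mirc11-/- and 3 wildtype libraries, and the labels place all 6 in 1 batch. In the Mirc11-/- group the mice carried the deletion of the Mirc11 cluster and in the wildtype group they did not. All mice were of the C57BL/6 background and 6 to 8 weeks old, and the labels list normal hematopoiesis as their treatment. The cells were sorted as Lin-Sca1+Kit+ (LSK), the bone marrow fraction enriched for stem cells and early progenitors, and each library pools RNA of cells from 3 to 4 mice, so that a library is not a single animal.

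GATA1 and GATA2 are zinc finger proteins that bind GATA motifs, while TAL1 and its close relative LYL1 are basic helix-loop-helix proteins that bind E-box motifs as dimers with E proteins. LMO2 and LDB1 bind no DNA themselves and bridge GATA and TAL1 proteins into 1 complex. GATA2 acts in stem and early progenitor cells and is replaced by GATA1 as erythroid and megakaryocyte cells form. ZFPM1, also called FOG1, is the cofactor of GATA1, KLF1 binds CACC boxes and activates globin and other erythroid genes, NFE2 acts in platelet formation, and GFI1B is a repressor needed for both erythroid cells and megakaryocytes.

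Values are reads per gene scaled by library, referred to as normalized counts. Reads in genes came to 15029379 to 17051541 per library. Fold changes are given on the scale of log2(count + 1), Mirc11-/- minus wildtype, and were tested by limma over the 15662 genes whose mean reached at least 1 normalized count, calling genes at a Benjamini-Hochberg adjusted p under 0.05. Gene positions are those of GENCODE vM21 on GRCm38. The miRNA genes Mir23a, Mir27a and Mir24-2 had 0 reads in the Mirc11-/- libraries together, against 51, 54 and 73 reads in the wildtype libraries together. Kit, a gene of the sort, had 6644 to 9950 normalized counts in Mirc11-/- libraries and 8577 to 9416 in wildtype libraries, and Ly6a, which encodes Sca-1, had 374 to 534 in Mirc11-/- libraries and 444 to 683 in wildtype libraries. Markers of sorted-out cells were not all near 0, since Itgam, which encodes the CD11b of the lineage stain, had 1263 to 1398 normalized counts in Mirc11-/- libraries and 1574 to 1653 in wildtype libraries, while Cd3e stayed at 2.01 or less in every library. On the first principal component the Mirc11-/- libraries 1 and 2 stood apart at -54.6 and -25.5, whereas Mirc11-/- library 3, at 19.5, fell among the wildtype libraries at 13.5 to 26.2. On the second component Mirc11-/- libraries 2 and 3 stood at -32.5 and -35.8, outside the wildtype libraries at -2.15 to 27. Mirc11-/- library 1, at 18, fell within the wildtype range there. Fold changes of the members are therefore also given with each library left out.

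The deleted miRNAs are shown because 2 members hold matches to their seeds. RefSeq gives the mature forms below on chromosome 8 of GRCm38.p6, plus strand, each 5′ to 3′ with the seed, bases 2 to 8, in capitals.
miR-23a-3p: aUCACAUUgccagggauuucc
miR-27a-3p: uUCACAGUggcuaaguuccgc
miR-24-3p: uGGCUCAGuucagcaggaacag
The 3 seeds differ from each other.

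In the members' 3′ UTRs, taking the longest per gene (GENCODE vM21, GRCm38), Gata2 held 1 match of 7 bases to miR-27a-3p and 1 to miR-24-3p, and Tal1 held 1 to miR-27a-3p. The other 8 members held none, including Zfpm1, Klf1, Gata1 and Gfi1b, whose 3′ UTRs span 60, 352, 497 and 575 bases. The sites are printed below 5′ to 3′ on the plus strand with the matched bases in capitals, and lie at chr6:88205685-88205691, chr6:88206043-88206049 and chr4:115070703-115070709.
Gata2, miR-27a-3p: tgtgccgccattACTGTGAatatttct
Gata2, miR-24-3p: gaggtcctcagcCTGAGCCtccttcac
Tal1, miR-27a-3p: ggcggtggacggACTGTGAtcataaca
A match to any of the 3 seeds was present in 2 of 10 members and in 39.8% of the 13557 tested genes with an annotated 3′ UTR. By miRNA, the share of all those genes was 16.1% for miR-23a-3p, 16.8% for miR-27a-3p and 18.8% for miR-24-3p. These matches are a description of sequence and not evidence of binding.

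Tal1, Zfpm1 and Gfi1b had higher counts in every Mirc11-/- library than in any wildtype library, Gata1 and Klf1 were high in Mirc11-/- libraries 1 and 2 alone, and Gata2, Nfe2, Lmo2, Lyl1 and Ldb1 overlapped between genotypes. All 10 members were above the filter on low counts, and 0 were called by limma or by edgeR on the recovered reads with all 6 libraries, where 0.00638% of all genes tested were called higher by limma. At an unadjusted p under 0.05, 5 of 10 members were higher and 0 lower, against 4.15% of all genes tested being higher. Several of these 5 varied together over the 6 libraries, and the members were chosen with earlier results of these data known. The shares are therefore a description and not a test. The Mirc11-/- libraries were all above the wildtype libraries for 3 of 10 members and for 6.42% of all genes tested, and were all below them for 0 members. The fold change was above 0 for 8 members and below 0 for 2, with a median of 0.23 for the members and 0.00246 for all genes tested.

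**Figure D1:**
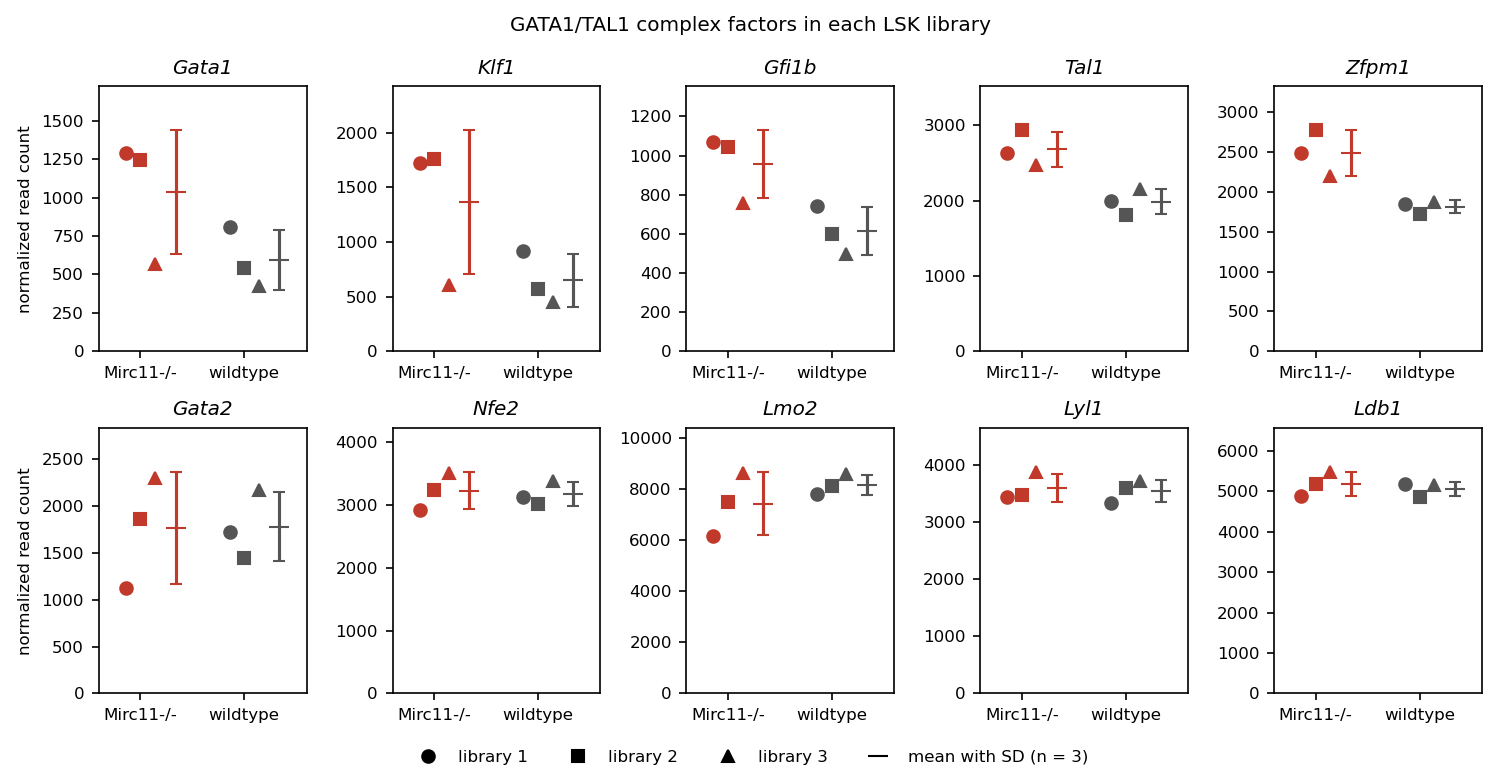
Normalized read counts of the 10 factors (y axis, from 0) in the 3 Mirc11-/- libraries (left, red) and the 3 wildtype libraries (right, grey), with marker shape giving the library number and bars giving mean and SD. Tal1, Zfpm1 and Gfi1b separate the genotypes, while Gata1 and Klf1 of Mirc11-/- library 3 (571 and 604 normalized counts) lie inside the wildtype range.

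Gata1, the master regulator of erythroid cells, had 1289, 1244 and 571 normalized counts in Mirc11-/- libraries 1 to 3, against 809, 540 and 428 in wildtype libraries 1 to 3. Only Mirc11-/- libraries 1 and 2 exceeded the wildtype range, and the third lay below wildtype library 1. The means were 1035 ± 402 in Mirc11-/- cells and 592 ± 196 in wildtype cells (SD, n = 3 each), or 0.76 as log2 fold change (SE 0.33, 95% interval 0.03 to 1.50, limma adjusted p = 0.592). The gene lies on chromosome X of GRCm38, from 7959260 to 7978071 on the minus strand.

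Klf1, whose protein activates globin, heme and red cell membrane genes, had 1724, 1762 and 604 normalized counts in Mirc11-/- libraries 1 to 3 and 922, 575 and 451 in wildtype libraries 1 to 3. The order of libraries was nearly that of Gata1, and the genotypes overlapped because Mirc11-/- library 3 was under wildtype library 1. Klf1 had the widest spread of all members, 3.91-fold between its highest and lowest library, and averaged 1363 ± 658 in Mirc11-/- cells and 649 ± 244 in wildtype cells (SD, n = 3 each). Its log2 fold change was 0.98 (SE 0.41, 95% interval 0.06 to 1.90, limma adjusted p = 0.579). Klf1 spans 84901928 to 84905291 on chromosome 8, 0.693 Mb from Mir23a.

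Gfi1b, the repressor, had 1069, 1044 and 758 normalized counts in Mirc11-/- libraries 1 to 3, against 744, 598 and 500 in wildtype libraries 1 to 3. No Mirc11-/- library was within the wildtype range, although library 3 exceeded wildtype library 1 by little. The log2 fold change was 0.64 (SE 0.17, 95% interval 0.24 to 1.04, limma adjusted p = 0.441), with means of 957 ± 173 in Mirc11-/- cells and 614 ± 123 in wildtype cells (SD, n = 3 each). Gfi1b lies on chromosome 2, from 28609450 to 28621982 on the minus strand.

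Tal1, the helix-loop-helix partner in the complex, had 2637, 2933 and 2475 normalized counts in Mirc11-/- libraries 1 to 3 and 1995, 1815 and 2149 in wildtype libraries 1 to 3. Here Mirc11-/- library 3 stayed above all wildtype libraries, and the spread within each genotype was small, with a CV of 8.65% in Mirc11-/- cells and 8.42% in wildtype cells. Mean counts were 2682 ± 232 in Mirc11-/- cells and 1986 ± 167 in wildtype cells (SD, n = 3 each), which is a log2 fold change of 0.43 (SE 0.10, 95% interval 0.22 to 0.65, limma adjusted p = 0.419). The gene spans 115056426 to 115071755 on chromosome 4, plus strand.

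Zfpm1, the GATA1 cofactor FOG1, had 2484, 2769 and 2202 normalized counts in Mirc11-/- libraries 1 to 3, against 1850, 1720 and 1870 in wildtype libraries 1 to 3. Every Mirc11-/- library was higher, and library 2 was the highest, as for Tal1. Averages were 2485 ± 283 in Mirc11-/- cells and 1813 ± 81.3 in wildtype cells (SD, n = 3 each), and the log2 fold change was 0.45 (SE 0.10, 95% interval 0.23 to 0.67, limma adjusted p = 0.406). Zfpm1 is on chromosome 8, from 122282141 to 122337251, at 38.1 Mb from Mir23a.

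The calls of these 5 members depended on the test and on 1 library. DESeq2 on the recovered reads called Zfpm1 (adjusted p = 0.0225) and Tal1 (adjusted p = 0.0313) higher, with 0.243% of all genes tested called higher by it. The DESeq2 adjusted p was 0.0637 for Gfi1b, 0.589 for Klf1 and 0.656 for Gata1. Without Mirc11-/- library 3, limma called all 5 higher, where it called 1.94% of all genes tested higher. The log2 fold changes were then 1.49 for Klf1 (limma adjusted p = 0.0123), 1.15 for Gata1 (0.0238), 0.80 for Gfi1b (0.0242), 0.53 for Zfpm1 (0.0150) and 0.49 for Tal1 (0.0292). With any other single library left out, 0 members were called, and over all 6 such fits the log2 fold change lay between 0.72 and 1.49 for Klf1, between 0.55 and 1.15 for Gata1, between 0.50 and 0.80 for Gfi1b, between 0.37 and 0.53 for Zfpm1 and between 0.37 and 0.49 for Tal1. With 3 libraries per genotype, the smallest p that an exact two-sided permutation test allows is 0.1.

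**Figure D2:**
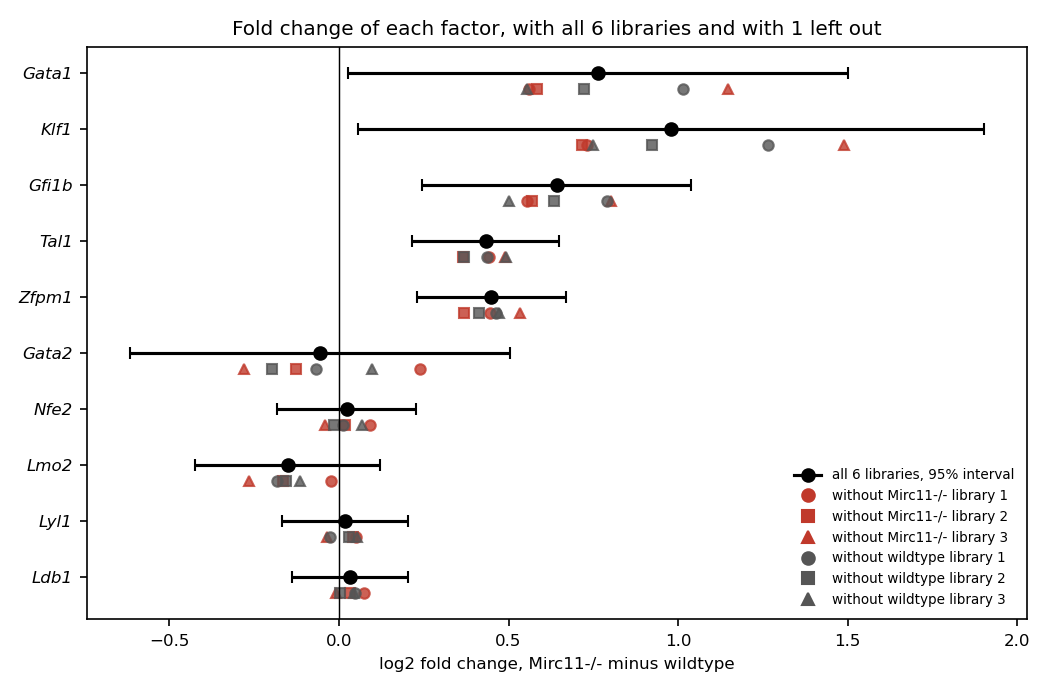
Log2 fold change of each factor, Mirc11-/- minus wildtype (x axis), with all 6 libraries (black, with the 95% interval from limma) and with 1 library left out (red for a Mirc11-/- library, grey for a wildtype library). Klf1 reaches 1.49 without Mirc11-/- library 3, while Tal1 stays between 0.37 and 0.49 and Ldb1 stays near 0.

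Gata2, the stem and progenitor GATA factor, had 1122, 1867 and 2303 normalized counts in Mirc11-/- libraries 1 to 3 and 1727, 1444 and 2171 in wildtype libraries 1 to 3. The Mirc11-/- libraries held both the lowest and the highest value of all 6. Mean counts were 1764 ± 598 in Mirc11-/- cells and 1781 ± 367 in wildtype cells (SD, n = 3 each), and the log2 fold change of -0.06 (SE 0.25, limma adjusted p = 0.970) had a 95% interval of -0.62 to 0.51, too wide to tell a moderate change from none. Its direction turned when Mirc11-/- library 1 was left out (0.24) or wildtype library 3 (0.10). Gata2 lies on chromosome 6 from 88193891 to 88207032, plus strand.

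Lmo2, the bridging protein, was the most abundant member, at 6148, 7506 and 8622 normalized counts in Mirc11-/- libraries 1 to 3 and 7814, 8132 and 8583 in wildtype libraries 1 to 3. Mirc11-/- libraries 1 and 2 were the lowest of all 6 and Mirc11-/- library 3 the highest. The log2 fold change was -0.15 (SE 0.12, 95% interval -0.42 to 0.12, limma adjusted p = 0.739), and it was -0.27 without Mirc11-/- library 3 and -0.02 without Mirc11-/- library 1. Lmo2 spans 103957986 to 103981878 on chromosome 2, plus strand.

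Nfe2, Lyl1 and Ldb1 were nearly level. Nfe2, the NF-E2 subunit of platelet formation, had 2921, 3240 and 3511 normalized counts in Mirc11-/- libraries 1 to 3 and 3125, 3008 and 3374 in wildtype libraries 1 to 3, a log2 fold change of 0.02 (SE 0.09, 95% interval -0.18 to 0.23, limma adjusted p = 0.964). Lyl1, the relative of Tal1, had 3433, 3482 and 3872 in Mirc11-/- libraries and 3330, 3603 and 3711 in wildtype libraries, with a log2 fold change of 0.02 (SE 0.08, 95% interval -0.17 to 0.20, limma adjusted p = 0.969). Ldb1, which dimerizes and links complexes over distance, had 4894, 5185 and 5473 in Mirc11-/- libraries and 5178, 4869 and 5153 in wildtype libraries, with a log2 fold change of 0.03 (SE 0.08, 95% interval -0.14 to 0.20, limma adjusted p = 0.930). For these 3 genes the groups overlapped and the intervals end at or below 0.23 on the log2 scale. The change estimated for Tal1 was larger, at 0.43, but its interval starts at 0.22 and so overlaps that of Nfe2. Nfe2 lies on chromosome 15 from 103248212 to 103258403, Lyl1 on chromosome 8 from 84701457 to 84704715 at 0.493 Mb from Mir23a, and Ldb1 on chromosome 19 from 46031570 to 46045214. Exons of Ldb1 share 177 bases with Pprc1 on the other strand and exons of Lyl1 share 4 bases with Nfix, so that 3.84% and 0.222% of their exon length could take reads of those genes if strand was not used in counting.

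Per kilobase of exon, on which levels of different genes can be set side by side roughly, the members of Mirc11-/- cells ordered from Lmo2 down to Gata2. The length was that of all annotated exons of a gene, such as 5398 bases for Gata2 and 1530 for Klf1. It can exceed the length of the expressed transcript, and the order depends on it. Normalized counts per kilobase averaged 3428 ± 572 in Mirc11-/- cells and 3775 ± 178 in wildtype cells for Lmo2, and 1998 ± 134 in Mirc11-/- cells and 1971 ± 109 in wildtype cells for Lyl1 (SD, n = 3 each). Ldb1 followed at 1126 ± 62.8 in Mirc11-/- cells and 1100 ± 37.3 in wildtype cells, and Nfe2 at 1079 ± 98.7 in Mirc11-/- cells and 1061 ± 62.6 in wildtype cells, so that the ranges of mean ± SD of Ldb1 and Nfe2 overlapped. Klf1 had 891 ± 430 in Mirc11-/- cells and 424 ± 160 in wildtype cells, Zfpm1 had 709 ± 80.9 in Mirc11-/- cells and 518 ± 23.2 in wildtype cells, and Tal1 had 612 ± 53.0 in Mirc11-/- cells and 454 ± 38.2 in wildtype cells. Gfi1b had 523 ± 94.4 in Mirc11-/- cells and 335 ± 67.1 in wildtype cells, Gata1 had 424 ± 165 in Mirc11-/- cells and 243 ± 80.3 in wildtype cells, and Gata2 had 327 ± 111 in Mirc11-/- cells and 330 ± 67.9 in wildtype cells. From Nfe2 down, these ranges overlapped between each gene and the next in Mirc11-/- cells. In wildtype cells the order below Nfe2 was Zfpm1, Tal1, Klf1, Gfi1b, Gata2 and Gata1, and these ranges overlapped between neighbours from Tal1 down but not between Zfpm1 and Tal1.

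The ratio of Gata1 to Gata2 counts, which takes up the exchange of GATA factors, was 1.15, 0.666 and 0.248 in Mirc11-/- libraries 1 to 3, against 0.468, 0.374 and 0.197 in wildtype libraries 1 to 3. Mirc11-/- libraries 1 and 2 were above all wildtype libraries, and Mirc11-/- library 3 was within their range. The ratio of Tal1 to its relative Lyl1 was 0.768, 0.842 and 0.639 in Mirc11-/- libraries and 0.599, 0.504 and 0.579 in wildtype libraries, and did not overlap. Klf1 over Gata1 varied less than both, with 1.34, 1.42 and 1.06 in Mirc11-/- libraries and 1.14, 1.06 and 1.05 in wildtype libraries. By library, Mirc11-/- library 3 was above every wildtype library for 8 members, Mirc11-/- library 2 for 6 and Mirc11-/- library 1 for 5, so that the library with Gata1 and Klf1 at the wildtype level was also the one with the highest Gata2, Lmo2, Nfe2, Lyl1 and Ldb1.

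Over the 6 libraries several members varied alike, in groups that were not sharply separated. The values below are Pearson r of log2(count + 1), given as a description without a test, since libraries of 1 genotype are not independent of it and the 6 points are few. Gata1 varied with Klf1 (r = 0.998) and Gfi1b (0.956), Tal1 varied with Zfpm1 (0.982), and Gata2 varied with Nfe2 (0.966), Ldb1 (0.865) and Lmo2 (0.849). Zfpm1 also varied with Gfi1b (0.868), Klf1 (0.811) and Gata1 (0.789). Gata1 and Lmo2 varied oppositely (-0.844), as did Gata1 and Gata2 (-0.557). When the Mirc11-/- libraries 1 and 2, the farthest from the median of Gata1, were left out, r with Gata1 was 0.999 for Klf1 and 0.818 for Gfi1b, and 0.010 for Zfpm1 and -0.160 for Tal1, so that the likeness of Tal1 and Zfpm1 to Gata1 rests on those 2 libraries. It was then -0.797 for Lmo2 and -0.333 for Gata2. Without Mirc11-/- libraries 1 and 3, the farthest from the median of Gata2, r with Gata2 was 0.991 for Nfe2 and 0.782 for Ldb1. It was 0.282 for Lmo2 and -0.085 for Gata1. The likeness of Lmo2 to Gata2 and the opposition of Gata1 and Gata2 thus weaken without the farthest libraries.

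**Figure D3:**
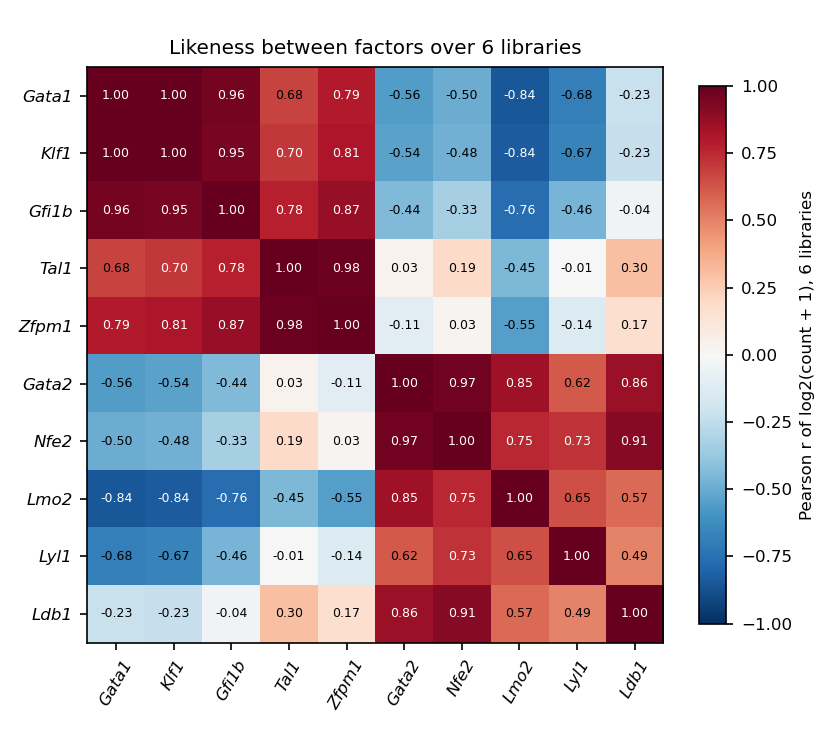
Pearson r of log2(count + 1) over the 6 libraries for each pair of factors (both axes), from -1 in blue to 1 in red. Gata1, Klf1 and Gfi1b varied alike, as did Tal1 and Zfpm1 with r = 0.982, but Zfpm1 and Gfi1b also reached 0.868. Among the remainder, Gata2, Nfe2, Lmo2, Lyl1 and Ldb1, r was as low as 0.493 for Lyl1 and Ldb1.

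Among 11402 genes with a mean of at least 50 normalized counts, the 5 most like Gata1 over the 6 libraries were Klf1, Sppl2b, Aplp2, Cyb5r3 and Tnk2, with r of 0.997 to 0.998 and a Spearman rho of 0.943 for Klf1 and of 1 for the other 4. Without Mirc11-/- libraries 1 and 2 their r was 0.985 to 0.999. Gfi1b stood at rank 257, Zfpm1 at 1601 and Tal1 at 2440. The 5 most like Gata2 were Uaca, Nap1l3, Cuedc1, Pnck and Pglyrp2, with r of 0.990 to 0.999 and a rho of 1 each, and their r was 0.979 to 0.996 without Mirc11-/- libraries 1 and 3, the farthest from the median of Gata2. Nfe2 stood at rank 73 in likeness to Gata2.

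Promoters were examined because several of these genes varied together. RefSeq's table for GRCm38.p6 matched 8 of 10 members with 12 promoters, and Lmo2 and Nfe2 had no entry. In the 250 bases before the start, a GATA motif (AGATAA or TGATAA, each also with G as the last base, both strands) was found in 4 of 12 promoters, those of Tal1, Klf1, Gfi1b and Ldb1, and in 26.5% of all 32841 promoters in the table. An E-box (CANNTG, both strands) was found in 5 of 12 member promoters and 66.2% of all promoters, a CACC box (CCNCNCCC, both strands) in 10 of 12 and 45.9%, and the NF-E2 core (TGANTCA, both strands) in 0 of 12 and 6.75%. Of the 5 members higher at an unadjusted p under 0.05, Klf1, Gfi1b and the first of 2 Tal1 promoters held a GATA motif, and Gata1, Zfpm1 and the second Tal1 promoter held none in this window. The 3 with a motif are printed beside that of Gata1, each 5′ to 3′ on the gene's strand with the motif in capitals, as read on either strand. The windows are chr8:84901732-84901981 (plus) for Klf1, chr2:28621983-28622232 (minus) for Gfi1b, chr4:115056176-115056425 (plus) for Tal1 and chrX:7967911-7968160 (minus) for Gata1.
Klf1: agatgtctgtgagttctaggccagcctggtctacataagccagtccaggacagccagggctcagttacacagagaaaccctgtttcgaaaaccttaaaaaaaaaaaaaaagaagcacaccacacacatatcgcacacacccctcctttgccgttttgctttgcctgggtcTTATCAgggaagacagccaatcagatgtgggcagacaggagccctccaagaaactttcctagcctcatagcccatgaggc
Gfi1b: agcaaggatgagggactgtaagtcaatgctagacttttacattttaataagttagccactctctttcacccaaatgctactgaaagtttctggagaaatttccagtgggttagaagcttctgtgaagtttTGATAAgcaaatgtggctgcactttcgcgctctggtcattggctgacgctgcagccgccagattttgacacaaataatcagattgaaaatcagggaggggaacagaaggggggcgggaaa
Tal1: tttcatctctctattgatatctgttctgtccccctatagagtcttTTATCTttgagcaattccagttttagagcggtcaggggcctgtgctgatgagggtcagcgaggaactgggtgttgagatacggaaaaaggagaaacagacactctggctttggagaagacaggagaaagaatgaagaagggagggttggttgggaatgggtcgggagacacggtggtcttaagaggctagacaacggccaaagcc
Gata1: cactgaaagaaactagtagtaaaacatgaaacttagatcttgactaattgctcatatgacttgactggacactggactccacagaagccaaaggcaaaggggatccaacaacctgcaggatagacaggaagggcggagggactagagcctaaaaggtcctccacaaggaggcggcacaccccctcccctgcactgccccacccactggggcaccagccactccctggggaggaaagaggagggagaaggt
The motif starts at -80 from the start in Klf1, at -120 in Gfi1b and at -205 in Tal1. The RefSeq start used for Gata1 lies inside its GENCODE span given above, so that its window is not upstream of the whole gene. The Klf1 window runs past the GENCODE start of Klf1. A match is a description of letters, not a bound site.

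Red cell genes, many of which GATA1 and KLF1 are known to activate, had their median deviation from the wildtype mean at 1.35, 1.25 and -0.09 in Mirc11-/- libraries 1 to 3 and at 0.40, -0.08 and -0.30 in wildtype libraries 1 to 3, on the log2(count + 1) scale. The order of these medians was nearly that of Gata1, but not every gene had it, since Bcl2l1 was highest in Mirc11-/- library 3 at 468 normalized counts. Of the red cell membrane, iron and globin genes 36 of 38 were tested, and 36 were above 0 with a median log2 fold change of 0.80. Among them 0 were called by limma, 11 had an unadjusted p under 0.05, all higher, and 2 were higher without overlap. Over all genes tested, 4.15% were higher at that p and 6.42% were higher without overlap. Hba-a1 and Hba-a2, Hbb-bs and Hbb-b1, and Hbb-bt and Hbb-b2 had identical values in every library. Each such pair is 1 measurement that entered these counts and the summed counts as separate genes. The summed counts of the list were 82806, 75666 and 37363 in Mirc11-/- libraries 1 to 3 and 47946, 37038 and 34741 in wildtype libraries 1 to 3, so that Mirc11-/- library 3 was within the wildtype range. Xk, a membrane protein of the Kell complex, had 987, 976 and 591 normalized counts in Mirc11-/- libraries and 590, 468 and 458 in wildtype libraries, a log2 fold change of 0.72 (SE 0.20, limma adjusted p = 0.444). Its groups did not overlap, although Mirc11-/- library 3 exceeded wildtype library 1 by little. DESeq2 called Xk higher with all 6 libraries (log2 fold change 0.75, adjusted p = 0.0385). Car2, a carbonic anhydrase, had a log2 fold change of 0.59 (SE 0.21, limma adjusted p = 0.510) and Tspan33, a tetraspanin, one of 1.06 (SE 0.39, 0.532). Without Mirc11-/- library 3 limma called these 3 genes higher, with log2 fold changes of 0.97, 0.86 and 1.58. In bulk RNA, more cells of a type and more RNA per cell cannot be told apart, and their part in the counts of Gata1 and Klf1 was not tested.

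The 9 heme synthesis enzymes had a like pattern. Of these, 8 were above 0 and 1 below, with a median of 0.49, 0 called by limma and 2 higher at an unadjusted p under 0.05. Their summed counts were 21200, 17695 and 10699 in Mirc11-/- libraries 1 to 3, against 14058, 12967 and 10712 in wildtype libraries 1 to 3. Urod had a log2 fold change of 0.49 (SE 0.16, limma adjusted p = 0.502), Alad one of 0.55 (SE 0.21, 0.546), Cpox one of 0.73 (SE 0.33, 0.600) and Uros one of 0.48 (SE 0.23, 0.614). Limma called these 4 enzymes higher without Mirc11-/- library 3, with log2 fold changes of 0.70, 0.79, 1.18 and 0.77.

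**Figure D4:**
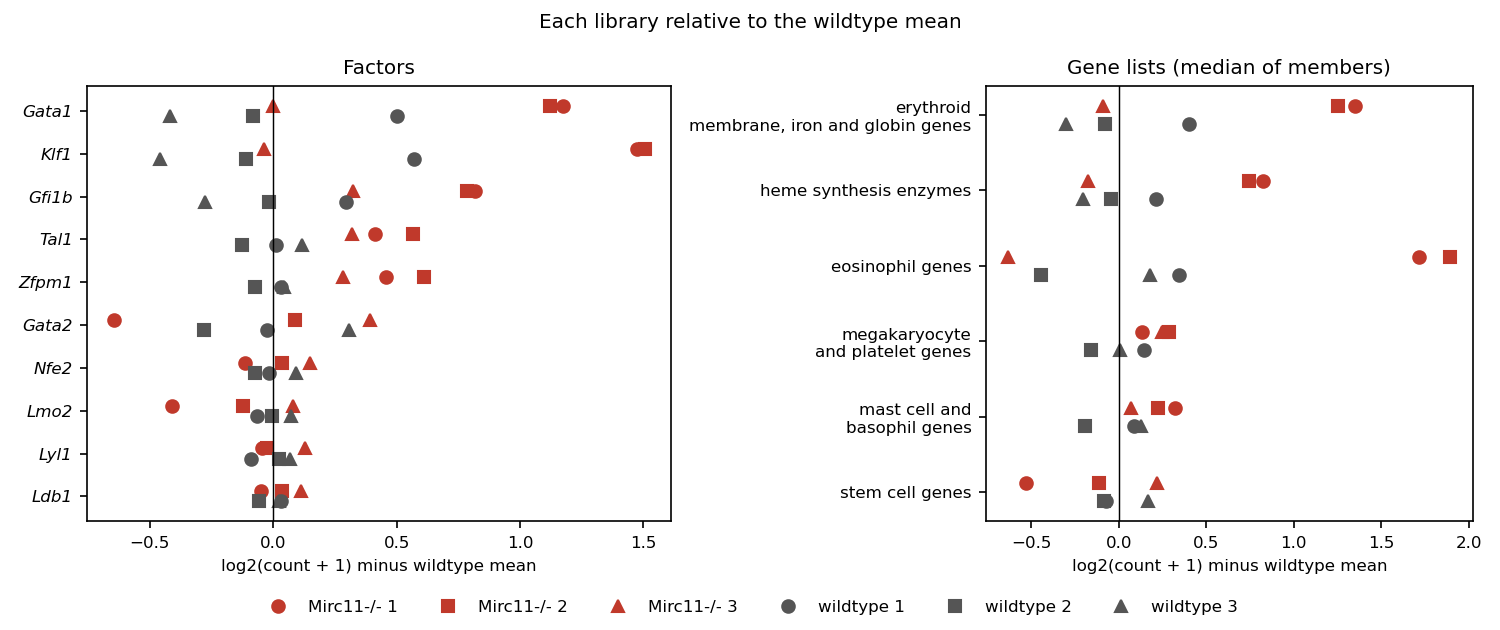
Deviation of each library from the wildtype mean on the log2(count + 1) scale (x axis) for the 10 factors (left) and, as the median over the tested genes of each list, for 6 gene lists (right), with Mirc11-/- libraries in red and wildtype libraries in grey. Erythroid genes lie at 1.35 and 1.25 in Mirc11-/- libraries 1 and 2 and at -0.09 in library 3, as Gata1 does at 1.17, 1.12 and -0.0026, while Tal1 and Zfpm1 stay above 0.28 in all 3.

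Megakaryocyte and platelet genes, of which GATA1 and NFE2 are known activators, were mixed. Of 26 tested, 21 were above 0 and 5 below with a median of 0.18, 0 were called by limma, and the unadjusted p was under 0.05 for 4 higher genes and 1 lower gene. Selp, which encodes P-selectin, had 109, 125 and 120 normalized counts in Mirc11-/- libraries and 358, 311 and 180 in wildtype libraries, a log2 fold change of -1.20 (SE 0.24, limma adjusted p = 0.405). The groups of Selp did not overlap, and DESeq2 called it lower (log2 fold change -1.27, adjusted p = 0.000733), as did limma without Mirc11-/- library 3 (-1.22, adjusted p = 0.0412). Itgb3, the platelet integrin beta chain, had a log2 fold change of 0.43 (SE 0.14, limma adjusted p = 0.502), Vwf one of 0.50 (SE 0.18, 0.524) and Mmrn1 one of 0.83 (SE 0.31, 0.534).

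Partners of the complex lay on both sides of 0. Of 35 partners 32 were tested, 14 above 0 and 18 below, with a median of -0.02, 2 higher at an unadjusted p under 0.05 and 0 called by limma. Sox6, a repressor of embryonic globin genes, had 412, 431 and 312 normalized counts in Mirc11-/- libraries and 294, 185 and 259 in wildtype libraries, without overlap, and a log2 fold change of 0.66 (SE 0.20, limma adjusted p = 0.470). Zbtb7a, a repressor of fetal globin in human cells, had a log2 fold change of 0.23 (SE 0.09, 0.576), the corepressor Rcor1 one of 0.21 (SE 0.09, 0.598) and the ETS factor Fli1 one of -0.16 (SE 0.08, 0.623).

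Paralogs of the members also lay on both sides. Of 12 paralogs 9 were tested, 4 above 0 and 5 below, with 0 called by limma and a median of -0.09. Klf2, which lies on chromosome 8 as Klf1 does, had 1745, 3076 and 2771 normalized counts in Mirc11-/- libraries and 3872, 4096 and 5404 in wildtype libraries, a log2 fold change of -0.84 (SE 0.21, limma adjusted p = 0.419). All Mirc11-/- libraries were below the wildtype libraries for Klf2, and it was called lower by DESeq2 (-0.82, adjusted p = 0.0162) and by limma without Mirc11-/- library 3 (-0.93, adjusted p = 0.0486).

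Gfi1, the relative of Gfi1b that acts in myeloid and stem cells, had 1465, 1361 and 1424 normalized counts in Mirc11-/- libraries and 1797, 1865 and 1587 in wildtype libraries, also without overlap and opposite to Gfi1b, with a log2 fold change of -0.30 (SE 0.09, limma adjusted p = 0.451). Lmo1, a paralog of Lmo2, had 82.3, 68.5 and 66.4 in Mirc11-/- libraries and 118, 113 and 102 in wildtype libraries and a log2 fold change of -0.62 (SE 0.19, 0.475). The relatives of Nfe2 had log2 fold changes of 0.23 for Nfe2l2 (SE 0.09, limma adjusted p = 0.573), 0.06 for Nfe2l1 (SE 0.07, 0.829) and -0.43 for Nfe2l3 (SE 0.41, 0.790). Klf3 had one of 0.14 (SE 0.11, 0.748), Gata3, the T cell GATA factor, one of -0.09 (SE 0.30, 0.950), and Ldb2, with at most 5.07 normalized counts in any library, one of 0.24 (SE 0.93, 0.963). Tal2 was under the minimum, and Zfpm2 and Lmo3 were at 0 reads in all 6 libraries.

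Markers of other cells that use GATA factors were read beside the members. Eosinophil genes summed to 2903, 3180 and 348 normalized counts in Mirc11-/- libraries 1 to 3 and to 1101, 563 and 1075 in wildtype libraries 1 to 3, so that Mirc11-/- libraries 1 and 2 were the highest and library 3 the lowest. All 8 tested were above 0, with a median of 0.64, 0 called by limma and 1 at an unadjusted p under 0.05. The log2 fold changes were 1.76 for Ear6 (SE 0.68, limma adjusted p = 0.566), 0.98 for Prg3 (SE 0.57, 0.644), 0.98 for Ear2 (SE 0.73, 0.722) and 0.39 for Il5ra (SE 0.32, 0.749). DESeq2 called Ear6 higher (2.28, adjusted p = 0.0366), and without Mirc11-/- library 3 limma called Ear6 (2.66) and Prg3 (1.73) higher. Reads of Ear genes can be shared among near copies, which leaves their counts uncertain.

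Mast cell and basophil genes summed to 23604, 22037 and 21649 in Mirc11-/- libraries and to 22544, 23008 and 23364 in wildtype libraries, with the mast cell proteases Mcpt4, Tpsb2 and Tpsab1 at 0 in all 6. Most of these sums came from Srgn and Kit, which other progenitors express too, and the other 13 genes summed to 4136, 2649 and 1895 in Mirc11-/- libraries 1 to 3 and to 2171, 1996 and 2164 in wildtype libraries 1 to 3. Of 12 tested, 8 were above 0 and 4 below, with a median of 0.20, 0 called by limma and 3 higher at an unadjusted p under 0.05. Fcer1a, of the IgE receptor, had 35.0, 10.4 and 22.1 normalized counts in Mirc11-/- libraries and 3.94, 0 and 7.09 in wildtype libraries, a log2 fold change of 2.63 (SE 0.79, limma adjusted p = 0.459). Prss34, a basophil protease, had a log2 fold change of 1.82 (SE 0.66, 0.532), Il1rl1, the IL-33 receptor, one of 1.03 (SE 0.39, 0.546) and Mcpt8 one of 0.50 (SE 0.34, 0.697). Limma called Prss34 (2.52) and Il1rl1 (1.50) higher without Mirc11-/- library 3.

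Stem cell genes had their lowest sum in the Mirc11-/- libraries 1 and 2. They summed to 28767, 36070 and 49950 normalized counts in Mirc11-/- libraries 1 to 3 and to 42712, 43221 and 49855 in wildtype libraries 1 to 3, with Cd34, Flt3 and Kit as the most abundant genes of the sum. By the median over the list, Mirc11-/- library 1 was low at -0.53 against the wildtype mean, while library 2, at -0.11, was close to wildtype libraries 1 and 2 at -0.07 and -0.09. Of 16 tested, 5 were above 0 and 11 below, with a median of -0.15, 0 called by limma and 2 lower at an unadjusted p under 0.05. The log2 fold changes were -0.43 for Cd34 (SE 0.18, limma adjusted p = 0.592), -0.49 for Flt3 (SE 0.21, 0.597), -0.64 for Hoxb5 (SE 0.38, 0.656) and 0.21 for Mllt3 (SE 0.15, 0.697), and limma called Cd34 (-0.67) and Flt3 (-0.77) lower without Mirc11-/- library 3. The part of erythroid, eosinophil and stem cell genes in the results of Gata1, Klf1, Gfi1b, Tal1 and Zfpm1 was not tested.

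Granulocyte and monocyte genes, of which 21 were tested, had 9 above 0 and 12 below with a median of -0.04, and lymphoid genes, of which 18 were tested, had 11 above 0 and 7 below with a median of 0.21. The summed counts of the lymphoid list leaned the other way. They were 9900, 8562 and 14596 in Mirc11-/- libraries 1 to 3 and 13706, 14308 and 17330 in wildtype libraries 1 to 3. Dntt and Nkg7 were the most abundant genes of that sum. In both lists 0 genes were called by limma, and at an unadjusted p under 0.05 the granulocyte and monocyte list had 4 higher and 2 lower and the lymphoid list 1 higher and 2 lower. Mmp9 had a log2 fold change of 1.64 (SE 0.39, limma adjusted p = 0.419), Mmp8 one of 1.32 (SE 0.39, 0.459), Itgam one of -0.26 (SE 0.08, 0.475) and Ltf one of 1.16 (SE 0.46, 0.570). In the lymphoid list Igll1 had a log2 fold change of 1.71 (SE 0.56, limma adjusted p = 0.502), Il7r one of -0.62 (SE 0.23, 0.558), Dntt one of -0.55 (SE 0.23, 0.588) and Nkg7 one of -0.62 (SE 0.28, 0.597). Counts of Igll1 were low, at 4.05 to 36.3 over the 6 libraries, and its groups overlapped. Without Mirc11-/- library 3 limma called Mmp8 higher (1.67) and Dntt (-0.84) and Il7r (-0.88) lower. DESeq2 called Mmp9 higher (1.57, adjusted p = 0.0352), and limma called Nkg7 lower (-1.01) without Mirc11-/- library 1.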

How the data were processed

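Total RNA of sorted LSK cells was prepared with a miRNeasy kit and made into libraries with the NEBNext Ultra II RNA kit. STAR, Cufflinks and mm10 are named in the submitters' processing notes and a human build in the supplementary methods, and versions, annotation and strand use were not given in sources used here. The deposited table is named for FPKM, but its signal per gene is a whole read count that the authors scaled by 1 factor per library: in each library 100% of the values above 0 were whole multiples of 1 step within 0.001. The fitted design assumed FPKM and was kept. Of 23999 entries 2 symbols stood on 2 entries each and were summed. Count tests used the recovered reads.

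The genotypes were compared with limma 3.58.1 in R 4.3.3 (empirical Bayes with a trend, two-sided, pseudocount 1, mean of at least 1, Benjamini-Hochberg, threshold 0.05). Alternatives were pseudocounts of 0.1 and 0.5, no minimum and a minimum of 10, median-ratio and quantile scaling, no trend, a replicate block, edgeR 4.0.16, DESeq2 1.42.0 and each library left out. The fits were tested on simulated data. Each library is a pool of mice, and p-values measure the spread between these libraries, which may be partly technical. The members and lists were chosen with earlier results of these data known. Named genes were all members, in each list the 4 smallest p and any called, the 5 most like Gata1 and the 5 most like Gata2, every measured paralog and the 3 miRNA genes, and 1 gene so selected is not reported here. Kit, Ly6a, Itgam and Cd3e were added to describe the sort, and Bcl2l1, Srgn and the paired globin genes after their values were seen.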

Additional observations from a re-analysis of the deposited data

How the results depend on the processing

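Over all genes limma called 5 with all 6 libraries, 1 higher and 4 lower. The count was 30 with the replicate number as a block and 125 by DESeq2, and between 1 and 531 with 1 library left out, the highest without Mirc11-/- library 3. The other 8 settings gave counts within 1.5 times of 5, among them edgeR with 4. Over all genes the deviations of same-numbered libraries correlated at 0.0664, -0.0632 and 0.0969. A pairing that acts on only some genes was not tested. The replicate block called 0 members. With it the SE fell from 0.33 to 0.14 for Gata1, from 0.41 to 0.19 for Klf1 and from 0.17 to 0.09 for Gfi1b. It changed little for Zfpm1 (0.097 to 0.093) and Tal1 (0.096 to 0.097). The limma adjusted p with the block was 0.054 for Gfi1b, 0.101 for Gata1, 0.109 for Klf1, 0.124 for Zfpm1 and 0.144 for Tal1.

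Of 160 member values under alternatives, 146 kept direction and side of the threshold, and 7 passed the threshold: Tal1 and Zfpm1 by DESeq2, and these with Gata1, Klf1 and Gfi1b without Mirc11-/- library 3. The other 7 changed sign, all with 1 library left out, where the log2 fold change ranged from -0.28 to 0.24 for Gata2, from -0.041 to 0.091 for Nfe2, from -0.036 to 0.052 for Lyl1 and from -0.0077 to 0.073 for Ldb1. Those of the paralogs ranged from -0.38 to 0.19 for Gata3 and from -0.39 to 1.11 for Ldb2. No scaling, pseudocount or minimum turned a member. Of 719 values of the other named genes, 688 kept direction and side of the threshold, 26 passed it and 5 changed sign. Medians of the gene lists moved by less than the SD of the wildtype libraries in 138 of 160 cases, and the correlations of the 5 genes most like Gata1 and the 5 most like Gata2 moved by less than 0.1 with another pseudocount or 1 library left out. The cause of these changes was not tested. Counting error limits Gata1 little, since its smallest read count, 422, was the lowest of all members and gives a counting CV of 4.87%, against a CV of 33.1% among wildtype libraries. It is a larger part of the spread in members that vary little, as for Zfpm1 (2.40% against 4.49%) and Ldb1 (1.43% against 3.39%).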
